A study of Mus musculus with 30 samples.

Results

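The genes described here encode the nuclear part of the mitochondrial respiratory chain, measured in cell lines derived from a mouse B cell lymphoma. Members were taken by symbol: protein coding rows of the count table that begin with Ndufa, Ndufb, Ndufc, Ndufs, Ndufv, Sdha, Sdhb, Sdhc, Sdhd, Uqcr, Cox4, Cox5, Cox6, Cox7, Cox8 or Atp5, pseudogenes left out. This gave 98 of 55401 rows, with 97 distinct symbols because Atp5o is listed at 2 positions. Complex I had 46 of these rows, complex II 8, complex III 8, complex IV 18 and complex V 18. The prefixes also took in 12 assembly factors, 8 named Ndufaf and 4 named Sdhaf, and left 13 rows out as pseudogenes or noncoding.

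Every library came from an Eµ-Myc; p19ARF -/- lymphoma line, so a Myc transgene driven in B cells by the immunoglobulin heavy chain enhancer and loss of p19ARF were shared by all groups, the controls included. The DMSO control group had 12 lines carried through repeated rounds of vehicle and recovery, the paclitaxel resistant group had 17 lines carried through the same rounds with paclitaxel, a drug that stabilizes microtubules, and the parental line was 1 library outside all tests. Each evolved line grew in its own well from the same parental line, so the lines are replicates of an evolution experiment and not of separate tumours. The comparison asks how the lines that had evolved under the drug differed from those that had evolved without it. The libraries read the 3′ ends of transcripts, and a deleted p19ARF gene cannot be checked with such tags.

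Library totals ran from 1053948 to 6739131 counts in the DMSO control group and from 480919 to 6682169 in the paclitaxel resistant group, and the parental library had 1851837. The deposited labels from DMSO 12 on were doubted in an earlier check of these data, which pointed to a shift by 1 library. Whichever way the labels shift, the treatment can change only for the libraries labelled DMSO 12, Pac A6 and Pac H9, apart from the parental library, and all 3 were left out in an alternative fit. Each library's deviation from the gene means over all libraries was correlated, over 9445 genes, with a difference between groups. This difference was the DMSO control mean minus the paclitaxel resistant mean, without the library itself and those 3 libraries. Positive values thus lean to the DMSO control group. The correlation was 0.299 to 0.613 in the libraries labelled DMSO 1 to DMSO 10 but 0.01 in DMSO 11 and -0.115 in DMSO 12. In the libraries labelled as paclitaxel lines the same measure ran from -0.389 to -0.073, except for 0.055 in Pac C1 and 0.106 in Pac H9, and the parental library gave 0.371. All values are given by deposited label, and results of the main calls are also given without the 3 libraries. All 8 B cell markers were detected, with summed levels of 2681 to 4999 CPM (counts scaled to a library total of 1000000) in the DMSO control group and 1727 to 4540 in the paclitaxel resistant group. T cell markers reached 19.3 CPM in sum at most and myeloid markers 50.9, and no erythroid or fibroblast marker passed 3 counts in any library. Whether the lower B cell marker sums take part in the results below was not tested.

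Complex I passes electrons from NADH to ubiquinone, complex II passes electrons from succinate, complex III hands them on to cytochrome c, complex IV reduces oxygen with them, and complex V uses the resulting proton gradient to make ATP. Complex II is built only from nuclear-encoded proteins, while the other complexes also hold subunits made from mitochondrial DNA. Assembly factors insert cofactors and join modules but do not remain in the finished complexes. Several subunits of complex IV have an isoform that is best known from heart and skeletal muscle. In lymphocytes, respiratory chain transcripts are known to rise with growth and proliferation, and MYC is among the factors known to raise them.

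Sdhaf1 was higher and 6 members were lower in the paclitaxel resistant lines, out of 91 members with enough counts to be tested. The 6 were Cox8a, Cox5a, Atp5g3, Sdhaf2, Ndufb8 and Uqcrc1, so that every complex had at least 1 lower member. The others did not pass the test. The test was the edgeR quasi-likelihood test with Benjamini-Hochberg adjustment over 9445 genes and a threshold of 0.01. The 7 called members are 7.69% of those tested, beside 2.20% of all tested genes in either direction. Lower calls were 6 members beside 1.21% of all genes, and the single higher call stands beside 0.995%. With a threshold of 0.05 there were 13 members, 11 lower and 2 higher, which is 14.3% of the members beside 7.56% of all genes. The lower members at that threshold stand beside 3.63% of all genes and the higher ones beside 3.93%.

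The median log2 fold change over the 91 members was -0.17, beside 0.07 over all tested genes. With libraries thinned to the smallest total these medians were -0.08 and 0.06, a difference of -0.138 in place of -0.243. In the unthinned fit the log2 fold change was below 0 for 65 members (71.4%), compared with 43.4% of all genes. By complex the median was -0.10 for complex I (45 tested), 0.08 for complex II (8), -0.25 for complex III (8), -0.41 for complex IV (13) and -0.19 for complex V (17). The 12 assembly factors had a median of 0.17 and the 79 tested subunits and their relatives a median of -0.18. The members share libraries and normalization, so these medians are descriptions. In bulk samples, fewer cells of a type and less RNA per cell cannot be told apart.

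**Figure D1:**
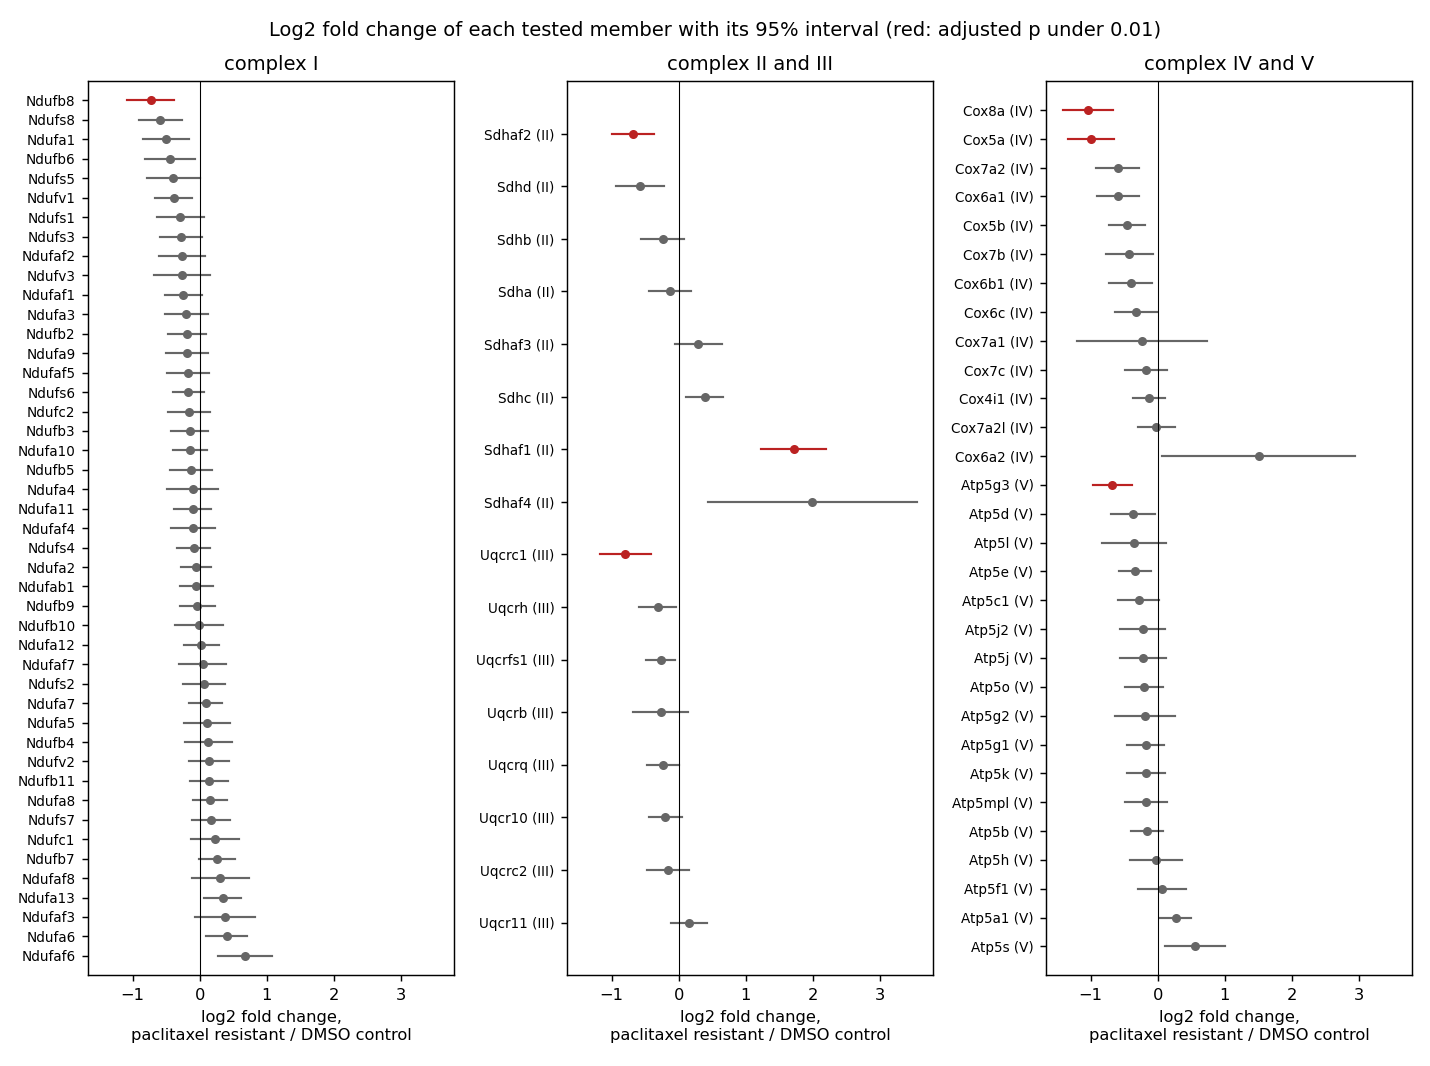
The log2 fold change of each of the 91 tested members (x axis, paclitaxel resistant over DMSO control, edgeR fit) with its 95% interval, in panels by complex, with members under an adjusted p of 0.01 in red. Sdhaf1 lies to the right at 1.71 and the 6 lower members lie to the left between -1.04 and -0.68, while the wide intervals belong to Sdhaf4, Cox6a2 and Cox7a1.

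Promoter sequences are shown for 4 members, because their levels differed in both directions. RefSeq windows (GRCm38.p6) from 250 bases before to 50 bases after the annotated start were found for 80 members and searched on both strands for letters bound by known regulators of these genes. These were GCATGCGC for NRF1, CCGGAAG for ETS factors such as GABP, and AANATGGC for YY1. Capitals mark a match, and CTTCCGG is CCGGAAG on the other strand.
Sdhaf1: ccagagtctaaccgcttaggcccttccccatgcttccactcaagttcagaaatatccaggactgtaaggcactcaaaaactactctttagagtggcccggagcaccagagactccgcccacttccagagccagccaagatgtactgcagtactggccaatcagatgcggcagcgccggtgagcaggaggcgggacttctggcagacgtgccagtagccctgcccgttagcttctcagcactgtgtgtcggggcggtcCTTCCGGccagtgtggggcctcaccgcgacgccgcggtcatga
Cox8a: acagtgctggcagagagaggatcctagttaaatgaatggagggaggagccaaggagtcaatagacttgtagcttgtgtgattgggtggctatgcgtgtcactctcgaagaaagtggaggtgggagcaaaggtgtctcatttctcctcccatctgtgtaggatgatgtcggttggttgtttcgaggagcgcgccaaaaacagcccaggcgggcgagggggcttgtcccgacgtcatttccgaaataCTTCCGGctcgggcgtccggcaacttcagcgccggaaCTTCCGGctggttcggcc
Uqcrc1: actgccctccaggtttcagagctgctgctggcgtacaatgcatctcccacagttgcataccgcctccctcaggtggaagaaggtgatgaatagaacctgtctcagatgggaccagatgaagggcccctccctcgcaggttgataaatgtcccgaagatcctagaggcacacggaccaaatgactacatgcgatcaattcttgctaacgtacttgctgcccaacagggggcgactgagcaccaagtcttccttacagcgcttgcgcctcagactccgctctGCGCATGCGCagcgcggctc
Cox5a: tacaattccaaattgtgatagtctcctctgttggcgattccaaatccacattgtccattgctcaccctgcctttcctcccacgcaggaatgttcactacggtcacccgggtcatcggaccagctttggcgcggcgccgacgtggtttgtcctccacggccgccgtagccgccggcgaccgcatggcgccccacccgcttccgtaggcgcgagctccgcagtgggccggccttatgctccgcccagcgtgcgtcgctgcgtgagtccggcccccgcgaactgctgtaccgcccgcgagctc
The windows are chr7:30322326-30322625 (minus strand) for Sdhaf1, chr19:7217567-7217866 (minus strand) for Cox8a, chr9:108936398-108936697 (plus strand) for Uqcrc1 and chr9:57520982-57521281 (plus strand) for Cox5a. The Sdhaf1 window lies inside the gene interval used here, chr7:30321406-30323895 (minus strand), so the annotations behind window and interval differ in the start. The ETS letters stood in the windows of Sdhaf1, which was higher, and Cox8a, which was lower. Uqcrc1 had the NRF1 letters on both strands, overlapping each other, and the Cox5a window held none of the 3 motifs. Over the 80 members, 12 (15%) held the NRF1 letters, beside 3.05% of 27025 RefSeq windows and 6.99% of the 7184 tested genes with a window. The ETS letters stood in 26.2% of member windows, beside 9.93% of all windows and 24.5% of those of tested genes. The YY1 letters stood in 25% of member windows, beside 6.96% and 12.4%. A match is a description of these letters only.

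Complex II held both calls among assembly factors, and they went in opposite directions. Sdhaf1 (chr7:30321406-30323895, minus strand) is a small protein that helps the iron-sulfur subunit Sdhb receive its clusters. Its level was 3.48 CPM at the lowest, 4.92 at the median and 8.83 at the highest in the 12 DMSO control libraries, and 7.24, 15.3 and 36.7 CPM in the 17 paclitaxel resistant libraries. Of the paclitaxel resistant libraries, 14 were above every DMSO control library, and the parental library had 7.71 CPM. The log2 fold change was 1.71 ± 0.24 (SE), a 3.28-fold higher level, with an adjusted p of 3.29e-05 in edgeR. These levels rest on 5 to 50 counts per DMSO control library and 6 to 211 per paclitaxel resistant library. Sdhaf1 overlaps E130208F15Rik on the opposite strand, so reads of the pair can be told apart only where strand was counted. Without the libraries labelled DMSO 12, Pac A6 and Pac H9 the log2 fold change was 1.70 (adjusted p = 0.000105), and 12 of 15 libraries were above all 11 controls. Within complex II, Sdhaf1 made up 0.0812% to 0.344% of the 3′ end counts in the DMSO control libraries and 0.185% to 2.51% in the paclitaxel resistant ones.

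Sdhaf2 (chr19:10500534-10526142, minus strand), which attaches the flavin cofactor to the catalytic subunit Sdha, was 1.60-fold lower. Its level ran from 159 to 297.5 CPM (median 249) in the DMSO control libraries and from 66.6 to 240 CPM (median 157) in the paclitaxel resistant libraries, 9 of which were below every control. On the log2 scale the difference was -0.68 ± 0.16 (SE, adjusted p = 0.00645), and -0.73 without the 3 doubted libraries (adjusted p = 0.00177). Sdhaf2 overlaps Cpsf7 on the opposite strand, and reads of the pair can be told apart only where strand was counted. Cpsf7 had a log2 fold change of -0.56 (adjusted p = 0.121).

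Sdhaf4, which helps Sdha and Sdhb join, was nearly absent in some libraries and plain in others. In 10 of 12 DMSO control libraries and in the parental library it lay under 2 CPM, with at most 5 counts in each of those controls. The other controls were DMSO 5 at 102 CPM and the library labelled DMSO 12 at 51.8 CPM. In the paclitaxel resistant group 16 of 17 libraries lay between 18.5 and 129 CPM, and Pac H1 alone was low at 0.486 CPM, which was 1 count. The groups therefore overlapped in both directions. Between groups the log2 fold change was 1.99 (95% interval 0.44 to 3.55) and the adjusted p was 0.10, so Sdhaf4 did not pass the test. Without the libraries labelled DMSO 12, Pac A6 and Pac H9 these values were 2.36 and 0.0688. The fit takes 1 dispersion for each gene over lines that were either low or high. Sdhaf4 also overlaps Gm26524 on the opposite strand.

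The subunits of complex II themselves did not reach the threshold of 0.01. Sdha, the catalytic flavoprotein, had a log2 fold change of -0.14 (adjusted p = 0.614), and Sdhb, which carries the iron-sulfur clusters, had -0.24 (adjusted p = 0.353). Of the membrane anchors, Sdhc had 0.38 (adjusted p = 0.0709) and Sdhd had -0.57 (adjusted p = 0.0395). Sdhd ran from 863 to 1912 CPM in the DMSO control libraries and from 400 to 1398 CPM in the paclitaxel resistant libraries, 7 of which were below all controls. Without the 3 doubted libraries the adjusted p of Sdhd was 0.0324. Sdhaf3, which acts with Sdhaf1 on Sdhb, had a log2 fold change of 0.29 (adjusted p = 0.285).

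Complex IV had the lowest median, and 12 of its 13 tested members (92.3%) had a log2 fold change below 0, beside 43.4% of all genes. At 0.05, 5 of the 13 (38.5%) were lower, beside 3.63% of all genes, and none was higher, beside 3.93%. Cox8a (chr19:7215153-7217616, minus strand), a small membrane subunit, ran from 973 to 2386 CPM (median 1957) in the DMSO control libraries and from 331 to 1916 CPM (median 900.4) in the paclitaxel resistant libraries. The lowest control was the library labelled DMSO 12, the lowest library of all was Pac A6, and 10 of 17 paclitaxel resistant libraries lay below every control. This gave a log2 fold change of -1.04 ± 0.18 (SE), a 2.06-fold lower level (adjusted p = 0.000603). Without the libraries labelled DMSO 12, Pac A6 and Pac H9, 13 of 15 libraries lay below all controls and the log2 fold change was -1.02 (adjusted p = 0.000132).

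Cox5a (chr9:57521274-57532426, plus strand), a subunit on the matrix side of complex IV, was 1.99-fold lower. Its level ran from 124 to 264 CPM (median 175) in the DMSO control libraries and from 42.4 to 160 CPM (median 102) in the paclitaxel resistant libraries. In 14 of the 17 it was below every control, and the parental library had 170.3 CPM. Its log2 fold change was -0.99 ± 0.17 (SE, adjusted p = 0.000393). Without the 3 doubted libraries it was -0.98, with 12 of 15 below all controls (adjusted p = 0.000471). Gm26631, on the opposite strand of Cox5a, had at most 30 counts in a library.

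Cox6a1, Cox7a2 and Cox5b passed 0.05 but not 0.01. Cox6a1, the general isoform of subunit 6a, had a log2 fold change of -0.59 (adjusted p = 0.0141), and 13 of 17 paclitaxel resistant libraries were below all controls. Cox7a2, the general isoform of subunit 7a, had -0.59 (adjusted p = 0.0178), with 12 of 17 below all controls. Cox5b, which binds zinc, had -0.46 (adjusted p = 0.0249), with 8 of 17 below all controls. Other members of the same complex had values nearer to 0: Cox4i1, a core structural subunit and the general isoform of subunit 4, had -0.13 (95% interval -0.38 to 0.11, adjusted p = 0.508), and Cox7c had -0.18 (adjusted p = 0.48). Without the 3 doubted libraries the adjusted p was 0.0187 for Cox6a1, 0.0171 for Cox7a2 and 0.0229 for Cox5b. As a share of the complex IV counts, Cox8a made up 9.03% to 16.3% in the DMSO control libraries and 4.76% to 13.4% in the paclitaxel resistant libraries, 9 of them below every control.

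**Figure D2:**
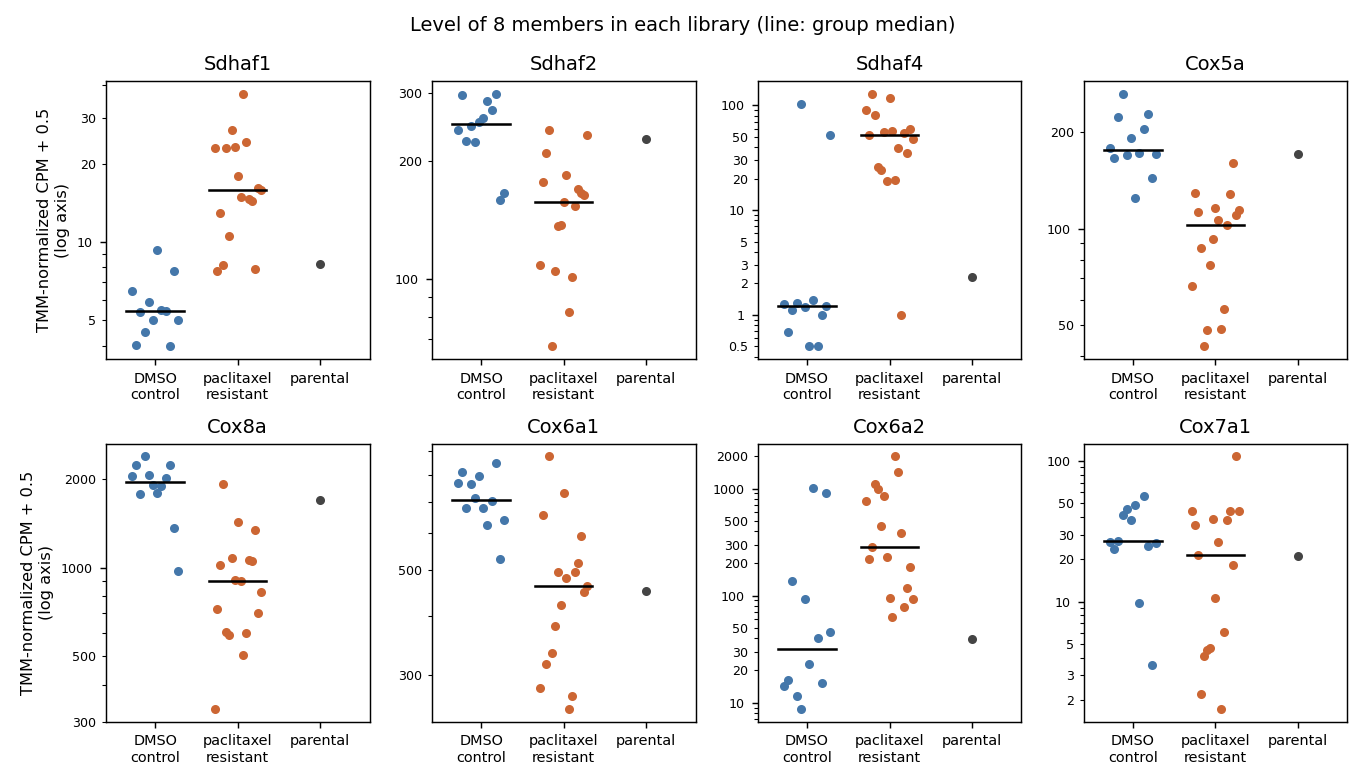
Level of 8 members in each library (y axis, log scale, TMM-normalized CPM plus 0.5), by deposited label, with 1 point a library and a line at the median of the 12 DMSO control and the 17 paclitaxel resistant libraries. Sdhaf1 was mostly higher, and Sdhaf2, Cox5a, Cox8a and Cox6a1 mostly lower, in the paclitaxel resistant libraries, while Sdhaf4, Cox6a2 and Cox7a1 spread widely within groups.

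Cox6a2 and Cox7a1 varied widely from line to line. Cox6a2, the isoform of subunit 6a known from heart and muscle, lay between 8.21 and 137 CPM in 10 DMSO control libraries, while DMSO 8 had 1001 CPM and DMSO 11 had 911 CPM. In the paclitaxel resistant group it ran from 63.1 CPM in Pac E2 to 1996 CPM in Pac F10, with a median of 285 CPM and with 6 of 17 libraries over 700 CPM. All paclitaxel resistant libraries were above the DMSO control median of 30.9 CPM, and the parental library had 38.6 CPM. The fitted log2 fold change was 1.505 (95% interval 0.07 to 2.94) with an adjusted p of 0.18, so Cox6a2 did not pass the test. Without the 3 doubted libraries these values were 1.48 and 0.223. No Cox6a2 library rested on fewer than 29 counts. Cox6a2 overlaps Itgad on the opposite strand, and reads of the pair can be told apart only where strand was counted.

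Cox6a2 made up 1.14% to 63.3% of the Cox6a1 and Cox6a2 counts in the DMSO control libraries (median 4.25%) and 11.49% to 88.8% in the paclitaxel resistant libraries (median 43.6%). Because each transcript gives reads at its 3′ end, these shares were not divided by transcript length. The sum of both isoforms had a median of 800.1 CPM in the DMSO control group and 824 CPM in the paclitaxel resistant group, with 6 of 17 below and 3 above the whole control range. The Cox6a1 level, lower at 0.05, thus stood beside a sum of the isoforms with overlapping groups and close medians.

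Cox7a1, the isoform of subunit 7a known from heart and muscle, was under 10 CPM in 2 of 12 DMSO control libraries and 6 of 17 paclitaxel resistant libraries. The 2 controls were DMSO 11 at 3.04 CPM and DMSO 8 at 9.34 CPM, the same libraries that were highest for Cox6a2. The 6 others were Pac F10, Pac C3, Pac C11, Pac D4, Pac D7 and Pac G9, at 1.22 to 5.55 CPM, and all but Pac D4 had over 700 CPM of Cox6a2. The limits of 10 and 700 CPM were set after the values were seen. Pac A6 went another way, with 757 CPM of Cox6a2 and 43.9 CPM of Cox7a1, and so did Pac E1, just over the limit at 10.03 CPM of Cox7a1 with 94.8 CPM of Cox6a2. Between groups its log2 fold change was -0.24 (95% interval -1.21 to 0.73, adjusted p = 0.787), and -0.40 without the 3 doubted libraries (adjusted p = 0.662). Cox7a1 made up at most 8.33% of the Cox7a1 and Cox7a2 counts in any library. The related Cox7a2l, which takes part in supercomplexes of complexes III and IV, had -0.02 (adjusted p = 0.936), and this value changed sign under 4 alternatives, among them library totals alone (0.08).

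The isoforms Cox8b, Cox8c, Cox4i2, Cox6b2 and Cox7b2 were at or near 0. Cox8b and Cox8c had no count in any library, which allows up to 3 counts in each, and so had the other Atp5o row. Cox4i2 had 5 counts in all libraries together, Cox6b2 16 and Cox7b2 1. Cox6b1, the general isoform of subunit 6b, had a log2 fold change of -0.41 (adjusted p = 0.0996). Such a limit covers counting error only.

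In complex V, Atp5g3 was the only call. It is 1 of the genes for the same mature subunit c, which forms the rotating ring of the membrane part (chr2:73908447-73911326, minus strand). Its level ran from 453 to 778 CPM (median 671) in the DMSO control libraries and from 227 to 560 CPM (median 420.3) in the paclitaxel resistant libraries, 9 of which were below all controls. This was a log2 fold change of -0.68 ± 0.14 (SE), a 1.60-fold lower level (adjusted p = 0.00331), and -0.71 without the 3 doubted libraries (adjusted p = 0.00172). Atp5g1 had -0.18 (adjusted p = 0.429) and the scarce Atp5g2, under 8.2 CPM throughout, had -0.19 (adjusted p = 0.614). Atp5g1 made up 19.2% to 28.2% of the counts of all subunit c genes in the DMSO control libraries and 20.6% to 41.8% in the paclitaxel resistant libraries. The sum of the subunit c genes had medians of 850.2 and 610.1 CPM, and 8 of 17 libraries were below all controls.

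The catalytic subunits of complex V did not pass the test. Atp5a1, the alpha subunit, had a log2 fold change of 0.27 (95% interval 0.04 to 0.50, adjusted p = 0.143), and Atp5b, the beta subunit, had -0.16 (adjusted p = 0.423). Atp5e, the epsilon subunit of the central stalk, had -0.34 (adjusted p = 0.0709). Atp5l, the membrane subunit g, had -0.35 (adjusted p = 0.349), with the widest spread among DMSO control lines of any complex V member (SD 0.609 on the log2 scale), at 5.79 to 28.3 CPM. Atpif1, which inhibits complex V and is listed under a symbol outside the prefixes, had -0.07 (adjusted p = 0.851).

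In complex III, Uqcrc1 (chr9:108936633-108949623, plus strand), a core protein on the matrix side, ran from 298 to 762 CPM (median 498) in the DMSO control libraries and from 122 to 449 CPM (median 303) in the paclitaxel resistant libraries. Of these, 8 of 17 were below all controls. Its log2 fold change was -0.79 ± 0.19 (SE, adjusted p = 0.00855). Without the libraries labelled DMSO 12, Pac A6 and Pac H9 it was -0.72 and no longer passed 0.01 (adjusted p = 0.0144). Uqcrfs1, the Rieske iron-sulfur protein, had -0.27 (adjusted p = 0.11), Uqcrq -0.23 (adjusted p = 0.217), and Uqcrc2, the other core protein, -0.16 (adjusted p = 0.536). Uqcr11, a small subunit, was the only member of complex III above 0, at 0.16 (adjusted p = 0.466).

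Complex I had 1 call among 45 tested members, 2.22%, next to 2.20% of all genes. Ndufb8 (chr19:44548572-44555440, minus strand), an accessory subunit of the membrane arm, ran from 259 to 518 CPM (median 403) in the DMSO control libraries and from 110 to 451 CPM (median 220.0) in the paclitaxel resistant libraries. In 12 of 17 it was below every control, and the parental library had 285 CPM. This gave a log2 fold change of -0.73 ± 0.17 (SE), a 1.66-fold lower level (adjusted p = 0.00789). It was -0.74 without the 3 doubted libraries (adjusted p = 0.00745) and -0.74 without the libraries under 1000000 counts, where the adjusted p rose to 0.0133. Ndufb8 overlaps Gm20538 on the same strand, where strand cannot tell reads of the pair apart.

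At 0.05 Ndufs8, an iron-sulfur core subunit, was also lower, at -0.59 (adjusted p = 0.0188), and the assembly factor Ndufaf6 was higher, at 0.67 (adjusted p = 0.0338). Ndufaf6 lay at 12.5 to 21.9 CPM in the DMSO control libraries, and 11 of 17 paclitaxel resistant libraries, which reached 48.8 CPM, were above all of them. Without the 3 doubted libraries the adjusted p was 0.0107 for Ndufs8 and 0.011 for Ndufaf6. The core members named by role did not pass the test: Ndufs1, which carries iron-sulfur clusters of the matrix arm, had -0.29 (adjusted p = 0.288), and Ndufv1, which binds NADH, had -0.39 (adjusted p = 0.0659). The 8 Ndufaf assembly factors ran from -0.27 to 0.67 with a median of -0.03. Ndufa4, now known as a subunit of complex IV despite its name, had -0.11 (adjusted p = 0.755). By its symbol, Ndufa4 was placed in complex I, and not in complex IV, in all counts, medians, shares and sums by complex.

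Ndufa4l2, a relative of Ndufa4 known to be induced by hypoxia, had too few counts to pass the filter and was not tested in the fit used here. It lay at or over 2.5 CPM in 6 of 12 DMSO control libraries, with 63.3 CPM in DMSO 7, 24.7 in DMSO 6 and 23.7 in DMSO 9. All 17 paclitaxel resistant libraries lay at or under 2.10 CPM, with at most 9 counts, and the parental library had 0. The other DMSO control libraries went as low as 0, so the groups overlapped. It was called lower in both alternative fits that kept it, with no filter on low counts and with the parental library added as another group. With the parental library added it passed the filter through the DMSO control libraries where it was high, so these calls are given as a description and support nothing.

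Taking all members as a sum, the libraries differed more within groups than between them. The summed level was 40780 CPM in DMSO 11, the lowest control, 61450 at the median and 73210 in DMSO 5, and in the paclitaxel resistant group 32560 in Pac G9, 55750 at the median and 69450 in Pac E1. The parental library had 62190 CPM. The medians differed by -5695 CPM, less than the SD of 8345 CPM among DMSO control lines. Without DMSO 12, Pac A6 and Pac H9 the difference was -6241 CPM. By complex, the ratio of the paclitaxel resistant to the DMSO control median was 0.991 for complex I, 0.894 for complex II, 0.857 for complex III, 0.783 for complex IV and 0.899 for complex V. For complex IV 16 of 17 paclitaxel resistant libraries lay below the control median and 6 below all controls.

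**Figure D3:**
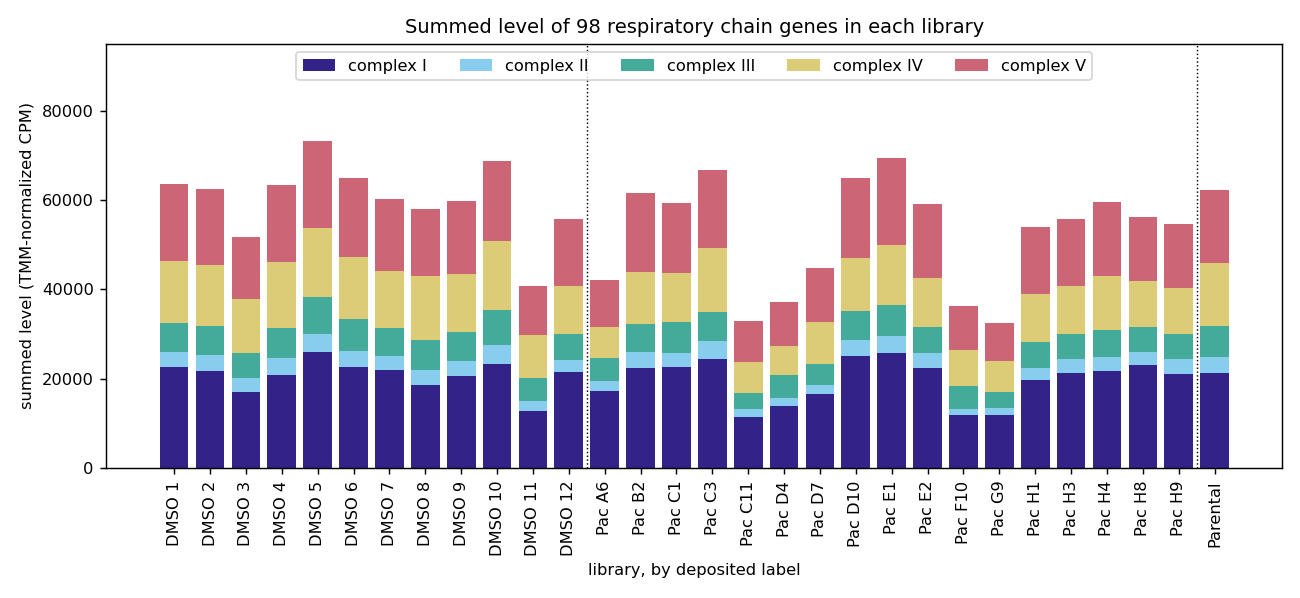
Summed level of the 98 members in each library (y axis, TMM-normalized CPM), stacked by complex, with libraries on the x axis by deposited label and dotted lines between groups. DMSO 11 and the libraries labelled Pac A6, C11, D4, D7, F10 and G9 had the lowest sums, from 32560 to 44740 CPM, and they came from both groups.

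The 7 lowest libraries were Pac G9, Pac C11, Pac F10, Pac D4, DMSO 11, Pac A6 and Pac D7, at 32560, 32850, 36320, 37300, 40780, 42190 and 44740 CPM. The next was DMSO 3 at 51670 CPM. As a percent of all counts, with no TMM factor, the same 7 libraries were again lowest, from 3.67% in Pac C11 to 4.99% in Pac A6, and the highest was 6.68% in DMSO 5. Their TMM factors were 1.02 in DMSO 11 to 1.26 in Pac F10, all above the 1.01 that the other libraries reached at most, and their part in the result was not tested. Their totals ran from 2640319 to 6739131 counts, and the part of depth was not tested. In Pac F10 83 of 91 tested members lay below the DMSO control median, with a median deviation of -0.83 on the log2 scale beside 0.08 over all genes. In DMSO 11 80 members did, with a median deviation of -0.63 beside 0.01, and 63 of 91 lay below the lowest of the other controls, compared with 21.04% of all genes. The low sums were not particular to the members. The summed level of the mitochondrial ribosome genes was also lowest in DMSO 11 among controls, at 10940 CPM. In the paclitaxel resistant group that sum was lowest in Pac F10, at 9445 CPM, and 4 of 17 libraries lay below all controls.

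The sum and the called members were not tested against each other. Pac B2 had a sum of 61610 CPM and a Cox8a level of 722 CPM, and Pac H8 had a sum of 56340 CPM and a Cox8a level of 703 CPM, both below the lowest control for Cox8a. In Pac B2, Cox5a at 129 CPM, Sdhaf2 at 177 CPM, Atp5g3 at 505 CPM and Uqcrc1 at 304 CPM lay inside the control ranges. Ndufb8 in Pac B2, at 246 CPM, lay below every control. In Pac H8, Sdhaf2 at 163 CPM lay inside its control range. Cox5a at 110 CPM, Atp5g3 at 420.3 CPM, Ndufb8 at 240 CPM and Uqcrc1 at 296 CPM in Pac H8 lay below every control. Sdhaf1 was highest in Pac F10, which had a low sum. Pac C3 had the highest Cox8a, Sdhaf2 and Ndufb8 levels of the paclitaxel resistant group and a sum of 66780 CPM.

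**Figure D4:**
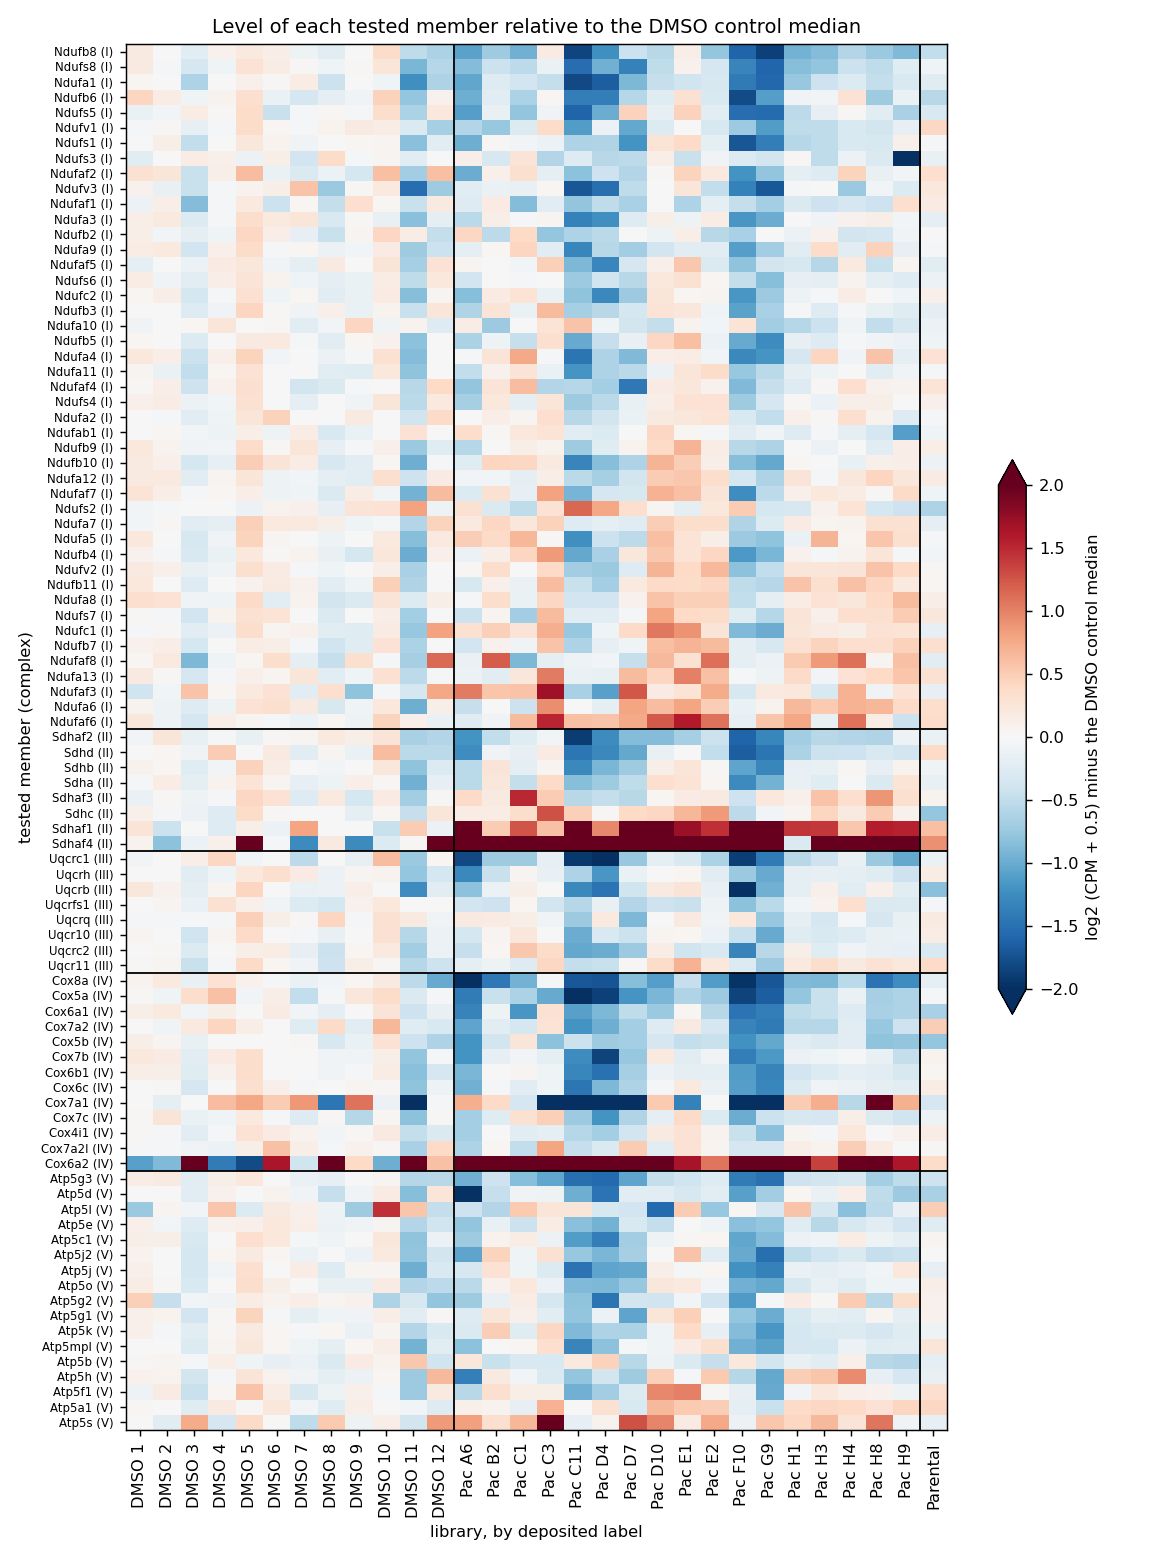
Each tested member (rows, by complex and then by log2 fold change) in each library (columns, by deposited label), coloured by log2 of CPM plus 0.5 minus the median of the 12 DMSO control libraries, with colours ending at 2 in each direction. Blue columns run through most members in DMSO 11, Pac C11, Pac D4, Pac F10 and Pac G9, and the rows of Cox8a, Cox5a, Atp5g3 and Ndufb8 are blue in most paclitaxel resistant libraries.

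Spread between lines was larger in the paclitaxel resistant group. The SD of the log2 level was higher there for 87 of 91 members (95.6%), beside 87.2% of all genes, and its median was 0.294 in the DMSO control and 0.5003 in the paclitaxel resistant group. Over all genes the medians were 0.459 and 0.678. The members with the widest spread among controls were Sdhaf4, Cox6a2, Cox7a1 and Atp5l.

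The mitochondrially encoded subunits, which join the nuclear-encoded ones, gave no call: 7 of 13 had enough counts, none passed 0.01 and 2 had an unadjusted p under 0.05 in edgeR, beside 2368 of all 9445 genes. Of the others, 4 had no count and mt-Atp6 and mt-Co3 had at most 1 count in any library, so the sum leaves these out, and the cause was not tested. The summed level ran from 16820 to 34700 CPM (median 28100) in the DMSO control libraries and from 5843 CPM in Pac F10 to 42470 CPM in Pac D4 (median 18870). The ratio of the medians was 0.671, and 14 of 17 paclitaxel resistant libraries lay below the control median. Pac F10 and Pac D4 were both low for the nuclear-encoded sum, so the lowest and the highest mitochondrial sum stood beside low nuclear sums.

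Some genes that work around the chain were called. Of 41 tested assembly genes outside the prefixes, 2 (4.88%, beside 2.20% of all genes) were lower: Tmem126a, an assembly factor of complex I, at -1.25 (adjusted p = 0.000146), with 16 of 17 libraries below all controls, and Ttc19, which acts in complex III, at -0.69 (adjusted p = 0.00692). Of 22 tested carriers and partner enzymes, 1 (4.55%) was higher, Coq8a, needed to make ubiquinone, at 1.38 (adjusted p = 0.00499). None of 14 tested regulators passed 0.01 in edgeR, and 5 had an unadjusted p under 0.05, beside 2368 of all 9445 genes. Myc had a log2 fold change of 0.47 (adjusted p = 0.0517). None of 76 tested mitochondrial ribosome genes passed 0.01, 16 had an unadjusted p under 0.05, and their median was -0.10. The log2 fold change was below 0 for 67.1% of them, beside 71.4% of the 91 members.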

How the data were processed

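Total RNA of 30 cell line libraries was read at the 3′ end. The authors aligned reads with STAR 2.5.1b to GRCm38 (mm10) and deposited STAR gene counts, not normalized. Whether random identifiers were collapsed, whether strand was counted and which sequencing subpool held each library are not given in the sources used here, so no batch was modelled. STAR counts reads with a unique position, so members with near-identical pseudogene copies are measured less surely.

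Symbols and positions came from gencode vM21, which named 55141 of 55401 rows. The other 260 rows held 0.0122% of counts. Counts were fitted with edgeR 4.0.16 (R 4.3.3; filterByExpr, TMM factors, quasi-likelihood F test, no covariate) over the 12 DMSO control and 17 paclitaxel resistant libraries by deposited label, with Benjamini-Hochberg adjustment over 9445 genes. Levels are TMM-normalized CPM, and log2 levels used a prior count of 2. Lines were treated as replicates because each grew in its own well, and p-values measure the spread between them. On simulated counts for this comparison (9325 genes) the fit recovered 87 of 92 genes changed 4-fold and 63 of 98 changed 2-fold. The fit made 1 false call there. Whether these rates hold for the measured counts was not tested. In the measured counts the SD of the log2 level was higher in the paclitaxel resistant group for 87.2% of all genes. Alternatives were the likelihood ratio test, DESeq2 1.42.0, other scalings and filters, a threshold of 0.05, left-out libraries, thinning and depth as a covariate.

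Members and lists were chosen with earlier results of these data known. Named were members under 0.01, the lowest p, largest changes and spread, highest level per complex, core subunits and isoform sets. Members named beyond that rule, such as those under 0.05, were chosen after their values were seen.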

Additional observations from a re-analysis of the deposited data

How the results depend on the processing

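No paired analysis was possible because DMSO control and paclitaxel resistant lines share no pairing, and their numbers are only names. The 7 calls became 11 with DESeq2 (10 lower), 13 at a threshold of 0.05 (11 lower, 2 higher) and 1 with all libraries thinned to 480919 counts (1 lower, 0 higher), where fewer genes were tested and 8 of 5385 were called. Of all genes 208 were called, beside 491 with DESeq2 and 448 with the likelihood ratio test. With library totals alone 2 members were higher, Sdhc being added. Cox8a was called under all 11 alternative fits and Sdhaf1 in the 10 that tested it. Thinning ended the calls of Cox5a, Atp5g3, Sdhaf2, Ndufb8 and Uqcrc1, with log2 fold changes of -1.03, -0.67, -0.56, -0.53 and -0.71. Ndufa4l2, left out by the filter on low counts, was called with no filter and with the parental library added. Library totals alone moved the median of all genes from 0.07 to 0.19, and the members' median lay 0.273 below it, compared with 0.243 below in the TMM fit and 0.138 below under thinning, where 54 of 87 members were below 0. Members with no call changed sign: under thinning Atp5b to 0.042, Atp5g1 to 0.032 and Cox7a2l to 0.033, and Cox7a2l also to 0.078 with library totals alone, 0.067 without the libraries labelled DMSO 12, Pac A6 and Pac H9 and 0.011 without libraries under 1000000 counts. Of 316 values of tested named members under alternatives, 297 kept direction and side of the threshold. The cause of these changes was not tested. Low counts limit the precision of Sdhaf1 and Ndufa4l2, and that of Sdhaf4 in the libraries where it was low.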

Other observations

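Ndufb1-ps, annotated as a noncoding bidirectional promoter transcript and so left out of the members, had 150638 counts over all libraries. Its level was 1545 CPM at the median of the DMSO control libraries and 1322 CPM at that of the paclitaxel resistant libraries, with a log2 fold change of -0.06 (adjusted p = 0.815 in edgeR). Oxa1l, which inserts proteins into the inner mitochondrial membrane, lay just outside the threshold with a log2 fold change of 0.65 (adjusted p = 0.0126). Its level was 32.2 to 66.5 CPM in the DMSO control libraries, and 12 of 17 paclitaxel resistant libraries were above all of them.

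Cytochrome c (Cycs), the carrier between complexes III and IV, had a log2 fold change of -0.12 (adjusted p = 0.743), and Cyc1, the heme subunit of complex III whose symbol is outside the prefixes, had 0.13 (adjusted p = 0.539). Neither passed the test.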
